A study of Macaca mulatta with 18 samples.

Results

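The genes described here are 10 components of the Notch pathway: the receptor genes NOTCH1, NOTCH2 and NOTCH3, the ligand genes DLL1, DLL3, DLL4, JAG1 and JAG2, and the modifier genes LFNG and NUMB. They were chosen by name from the 22345 genes of an RNA-seq table, with earlier results of these data known. All 10 were found there once each through their Ensembl identifiers. Each is a row of log2 normalized FPKM (fragments per transcript length and library size), a level per length. Orders, sums and shares across genes assume that the normalization keeps genes on a common scale, which was not tested. The table covers wild type rhesus macaque (Macaca mulatta) fetal brain at embryonic day 84, in 3 libraries of a tissue labelled CP and 3 of a tissue labelled GZ. The labels do not spell out these letters; in work on fetal cortex they usually stand for cortical plate, where young neurons settle, and germinal zone, where progenitors divide. The series holds 18 samples, and its Hi-C, DNase-seq and CTCF samples are not used here because their positions could not be tied to genes on the build of the files.

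Notch signalling passes between cells in contact. A ligand of the Delta-like or Jagged family on a cell binds a Notch receptor on its neighbour, the receptor is cut by ADAM proteases and then by gamma-secretase, and the freed intracellular part enters the nucleus and joins RBPJ and a Mastermind protein to switch on genes of the HES and HEY families. In the developing cortex this signal is known to keep radial glia, the neural stem cells, from turning into neurons, while cells that begin to differentiate display Delta ligands. Fringe enzymes such as LFNG add sugars that change which ligand a receptor answers to, and NUMB promotes removal of receptors from the cell surface. In blood vessels DLL4, JAG1 and NOTCH4 act in endothelium and NOTCH3 in the mural cells around it.

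The 6 libraries had medians between 1.82 and 1.87 on the log2 scale over all genes, and read depth is unknown because the table carries no read totals. Library profiles over the tested genes correlated at 0.971 to 0.987 inside a tissue and at 0.895 to 0.935 across the tissues. Deviations from the tissue mean over these genes ran opposite in the libraries numbered 1 (r = -0.38), unlike numbers 2 and 3 (0.30 and 0.35), so fits without library 1 of both tissues are given where they change a call. Markers of the labelled tissues were mixed: 9 of 9 proliferation genes were higher in GZ and 8 of 9 neuron genes higher in CP. All 5 tested interneuron and ventral forebrain genes were also higher in GZ. Radial glia genes went both ways, with overlapping sums. Of 6 ventricular genes 3 were higher in GZ and 1 in CP, and of 6 outer genes 2 and 1. In the comparison below, 24.5% of all genes tested were called as higher in GZ and 20.9% as higher in CP. Nothing in the labels says that the libraries of a tissue are from different animals. The p-values therefore weigh differences only against the spread of these libraries, and part of that spread may be technical.

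The comparison of GZ with CP asked which of the 10 genes differ between the tissues. The Delta genes DLL1 and DLL3 and the receptors NOTCH1 and NOTCH2 were 2.06-fold to 3.54-fold higher in GZ, and NUMB was 1.21-fold higher there. JAG2, DLL4 and NOTCH3 were higher in CP, by 2.98-fold, 2.86-fold and 1.33-fold. The test was limma, which fits a linear model to each gene and pools the variance across genes, over the 13460 genes with a mean of at least 0 on the log2 scale. At a Benjamini-Hochberg adjusted p under 0.05, 5 of the 10 were thus higher in GZ, 3 were higher in CP, and JAG1 and LFNG were not called. Over all genes tested 45.4% were called, 24.5% as higher in GZ and 20.9% as higher in CP. The median difference of the 10 genes, GZ minus CP, was 0.21 on the log2 scale against 0.05 for all genes. A called difference of at least 2-fold was found for 6 of the 10, where 12.5% of all genes had one. The libraries of the tissues did not overlap for 9 of the 10, with GZ above CP for 5 and CP above GZ for 4. Over all genes this held for 56.4%, with 30.9% and 25.5% in these directions. Since the 10 genes were chosen with earlier results known, these shares are a description and not a test of the set. With library 3 of CP left out the count higher in GZ was 3, as NOTCH2 and NUMB were no longer called. The count higher in CP was 2, since NOTCH3 was not called, with library 1 or 3 of CP or library 1 or 2 of GZ left out.

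**Figure D1:**
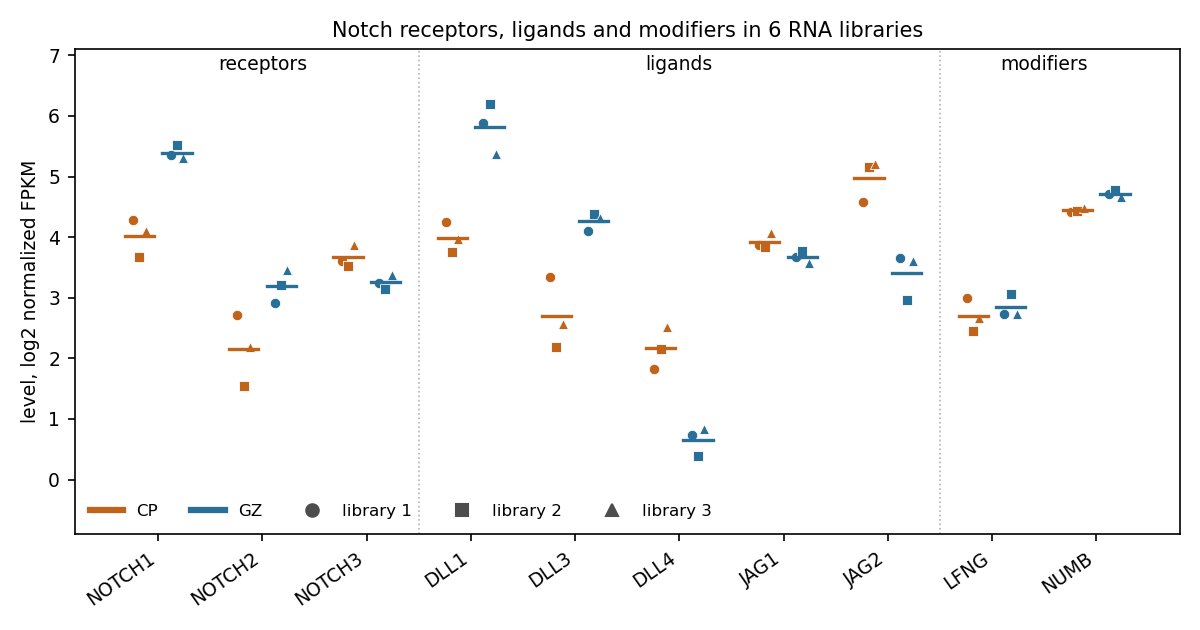
Level of each gene in log2 normalized FPKM on the vertical axis, by gene on the horizontal axis, with 1 symbol per library and a bar at the mean of the 3 libraries of a tissue. DLL1 reached 6.19 in GZ, DLL4 was the lowest gene there with values down to 0.39, and LFNG was the gene whose CP and GZ libraries overlapped.

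**Figure D2:**
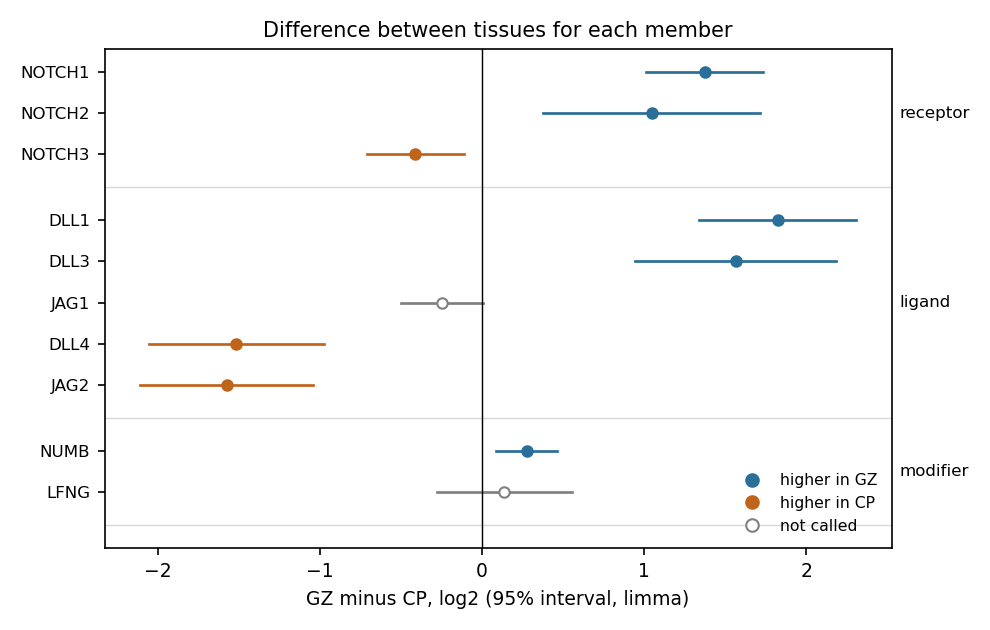
Difference between tissues, GZ minus CP, on the log2 scale with its 95% limma interval, for each gene by role. Values right of 0 are higher in GZ, and the differences ran from -1.57 for JAG2 to 1.82 for DLL1.

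NOTCH1 is the main receptor of cortical radial glia. Its log2 level was 4.29, 3.67 and 4.10 in the CP libraries and 5.35, 5.52 and 5.31 in the GZ libraries. Every GZ library lay above every CP library by more than a log2 unit. The difference was 1.37 ± 0.16 (SE) on the log2 scale, or 2.59-fold with a 95% interval from 2.02-fold to 3.33-fold (limma adjusted p = 4.92e-04, n = 3 per tissue).

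NOTCH2 codes for a second receptor that is also found in radial glia. It stood at 2.71, 1.55 and 2.19 in CP and at 2.92, 3.20 and 3.46 in GZ. The tissues did not overlap, but library 1 of CP came close to library 1 of GZ, and CP spread over more than a log2 unit. The difference was 1.04 ± 0.29 (limma adjusted p = 0.020). It no longer passed with library 3 of CP or library 3 of GZ left out (limma adjusted p = 0.053 for each). Radial glia markers went both ways, and the part of radial glia in the NOTCH1 and NOTCH2 differences was not tested.

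NOTCH3, the receptor of vascular mural cells, went the other way. Its levels were 3.61, 3.53 and 3.86 in CP and 3.24, 3.15 and 3.37 in GZ, so the groups did not overlap but lay close. The difference was -0.41 ± 0.13 (limma adjusted p = 0.033), a 1.33-fold higher level in CP. With library 1 or 3 of CP left out the adjusted p was 0.063 or 0.107, and with library 1 or 2 of GZ left out 0.093 or 0.102; with both libraries numbered 1 left out it was 0.152. Markers of pericytes and mural cells were also higher in CP: 5 of 8 tested, with 1 higher in GZ (MYH11, 1.75 ± 0.26). Over all genes 20.9% were called as higher in CP. The median difference of the 8 was -1.21, and NOTCH3 differed by less than any of them that was lower in GZ. Their summed level ran from 88.2 to 112 normalized FPKM in CP and from 31.7 to 54.3 in GZ. RGS5 and ABCC9, genes of pericytes, had the largest differences in favour of CP, -1.85 ± 0.34 and -1.52 ± 0.47. ABCC9 was no longer called with any 1 library of CP left out (limma adjusted p = 0.050, 0.066 and 0.106) or library 1 of GZ (0.059). Number 3 was the highest library of each tissue for both NOTCH3 and the mural sum, and library 2 of GZ the lowest for both, but in CP library 2 was lowest for NOTCH3 and library 1 for the mural sum. ACTA2 and KCNJ8 of that list are not analysed here. In bulk tissue, fewer cells of a type and less RNA per cell cannot be told apart, and the part of mural cells in the NOTCH3 difference was not tested.

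The receptors together amounted to 33.9 ± 5.9 normalized FPKM in CP and 60.9 ± 3.1 in GZ (SD, n = 3). NOTCH1 accounted for 51.0%, 46.9% and 47.3% of that sum in the CP libraries and 70.6%, 71.8% and 65.0% in the GZ libraries. NOTCH3 made up 38.1% ± 5.5 in CP and 15.7% ± 1.7 in GZ, and its share in the GZ libraries lay below its lowest CP share of 31.9%. The share of NOTCH2 overlapped between the tissues, at 13.5% ± 3.3 and 15.2% ± 2.6. Within a library NOTCH1 exceeded NOTCH3 by 0.35 ± 0.29 on the log2 scale in CP and by 2.14 ± 0.22 in GZ.

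DLL1, a Delta ligand of differentiating progenitors, had the largest difference of the 10 genes. Its levels were 4.25, 3.76 and 3.97 in CP and 5.88, 6.19 and 5.38 in GZ, and the lowest GZ library was more than a log2 unit above the highest CP library. The difference was 1.82 ± 0.21 on the log2 scale, a 3.54-fold higher level in GZ with a 95% interval from 2.53-fold to 4.94-fold (limma adjusted p = 5.03e-04). In absolute size it exceeded the difference of 97.1% of the genes tested. In GZ the level of DLL1 lay above 87.2% of genes, and in CP above 52.2%.

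DLL3 codes for a Delta-like protein that binds Notch in its own cell and is known to inhibit rather than activate it. It was at 3.35, 2.19 and 2.57 in CP and at 4.10, 4.39 and 4.31 in GZ. The GZ libraries lay close together while library 1 of CP stood above the other CP libraries. The difference was 1.56 ± 0.27 (limma adjusted p = 0.0027), a 2.96-fold higher level in GZ. Within a library DLL1 exceeded DLL3 by 1.29 ± 0.35 in CP and 1.55 ± 0.42 in GZ (log2, SD), so the ratio of the Delta genes overlapped between the tissues.

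Genes of several marker lists were higher in GZ too, where 24.5% of all genes tested were called as higher in GZ. All 9 proliferation markers were higher in GZ, with MKI67, a marker of cycling cells, at 2.08 ± 0.28 and with summed levels from 97.8 to 144 normalized FPKM in CP and from 230 to 414 in GZ. All 5 tested interneuron and ventral forebrain genes were higher in GZ as well, with sums from 199 to 232 in CP and from 487 to 693 in GZ. Among these, NKX2-1, a ventral forebrain factor, differed by 3.39 ± 0.62 and DLX6, a homeobox gene of ventral progenitors and interneurons, by 2.30 ± 0.21. In both lists library 2 of GZ had the highest sum and library 3 the lowest of that tissue, as for DLL1. DLL3 was also highest in library 2 of GZ, but its lowest GZ library was number 1 (4.10, against 4.31 in number 3). Library 1 of CP had the highest CP sum in both lists, as for DLL1 and DLL3. Of 3 tested intermediate progenitor genes, NHLH1 and PPP1R17 were higher in GZ, by 1.95 ± 0.42 and 0.83 ± 0.26. PPP1R17 no longer passed with library 2 or 3 of CP (limma adjusted p = 0.086 and 0.108) or library 1 or 3 of GZ (0.068 and 0.059) left out, nor with variance not tied to level (0.052). Whether the DLL1 and DLL3 differences come with one or another of these cell groups was not tested.

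**Figure D3:**
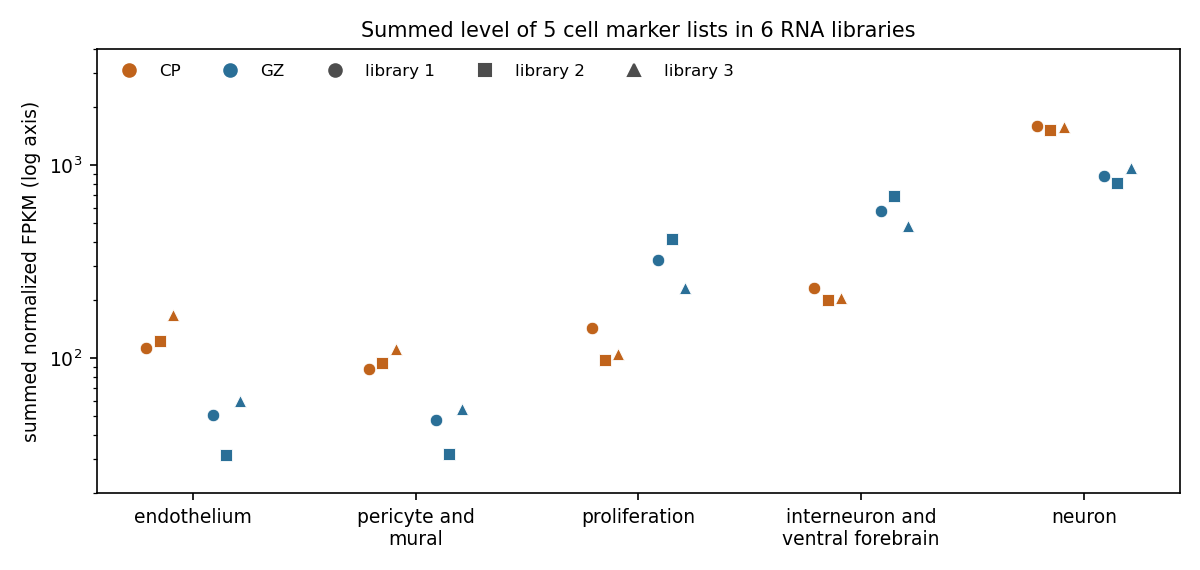
Summed normalized FPKM of 5 marker lists on a log axis, by list, with 1 symbol per library. Endothelium and mural sums were higher in every CP library than in any GZ library, with endothelium at 113 to 168 in CP and 31.6 to 59.9 in GZ, and proliferation and ventral sums were higher in every GZ library.

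JAG2, a Jagged ligand, showed the largest difference in favour of CP. Its levels were 4.58, 5.16 and 5.21 in CP and 3.66, 2.96 and 3.60 in GZ. Library 1 was the lowest of CP and still lay above every GZ library. The difference was -1.57 ± 0.23 (limma adjusted p = 0.0014), a 2.98-fold higher level in CP with a 95% interval from 2.06-fold to 4.31-fold. JAG2 was above 73.5% of tested genes in CP and above 39.7% in GZ.

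DLL4, the ligand of sprouting vessel tips, was at 1.83, 2.16 and 2.52 in CP and at 0.74, 0.39 and 0.83 in GZ. It was the lowest of the 10 genes in GZ, where 5.56% of tested genes had a lower mean. The difference was -1.52 ± 0.23 (limma adjusted p = 0.0017), or 2.86-fold higher in CP. With a pseudocount of 1, which shrinks differences of low genes, it was -1.10 and still called.

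Endothelial markers were higher in CP in the same libraries as DLL4. All 11 tested were called, where 20.9% of all genes were called as higher in CP. Their median difference was -1.49 with a range from -2.09 to -0.61, and DLL4 and JAG2 lay inside that range. Of the other pathway genes that act in endothelium, NOTCH4 lay inside it (-0.91) and JAG1 outside it (-0.25, not called). FLT1 and KDR, which code for VEGF receptors, differed by -2.09 ± 0.33 and -2.02 ± 0.37. Within each tissue the library with the highest endothelial sum was also the one with the highest DLL4 level, number 3, and the lowest were library 1 of CP and library 2 of GZ for both. JAG2 followed the same order in CP, but in GZ its highest library was number 1 (3.66, against 3.60 in number 3). Neuron markers were higher in CP too, 8 of 9 tested, with differences from -3.38 to -0.19. That range holds DLL4, JAG2, NOTCH4 and JAG1. Sums of the neuron markers ran from 1534 to 1594 normalized FPKM in CP and from 815 to 969 in GZ. In GZ the neuron sum was likewise lowest in library 2 and highest in library 3. In CP it was highest in library 1 and lowest in library 2. NEFL, a neurofilament gene, differed by -3.38 ± 0.41 and GRIN2B, a glutamate receptor subunit gene, by -2.85 ± 0.17. The parts of endothelium and neurons in the DLL4 and JAG2 differences were not tested.

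JAG1, the other Jagged ligand, was not called. It was at 3.86, 3.84 and 4.06 in CP and at 3.68, 3.77 and 3.58 in GZ. The 3 CP values lay above the 3 GZ values, yet the difference of -0.25 ± 0.11 did not pass (limma adjusted p = 0.099), with a 95% interval from -0.50 to 0.0045.

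DLL1 held the largest share of ligand RNA in every GZ library and JAG2 in every CP library. Summed over the 5 ligands the level was 74.9 ± 5.3 normalized FPKM in CP and 102 ± 15 in GZ (SD, n = 3). DLL1 made up 26.7%, 18.7% and 19.4% of it in the CP libraries and 57.0%, 62.6% and 47.6% in the GZ libraries. JAG2 made up 33.5%, 49.2% and 45.6% in CP and 12.3%, 6.66% and 13.9% in GZ. DLL1 and DLL3 together held 30.9% ± 8.8 in CP and 74.9% ± 5.2 in GZ, whereas JAG1 and JAG2 together held 63.1% ± 7.9 and 23.5% ± 4.7. DLL4 held 6.06% ± 1.04 in CP and 1.59% ± 0.46 in GZ. Within a library DLL1 was below JAG2 in CP, by a log2 difference of -0.99 ± 0.58, and above it in GZ, by 2.41 ± 0.75. Shares are a description without a test, since these genes were chosen with their differences known.

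**Figure D4:**
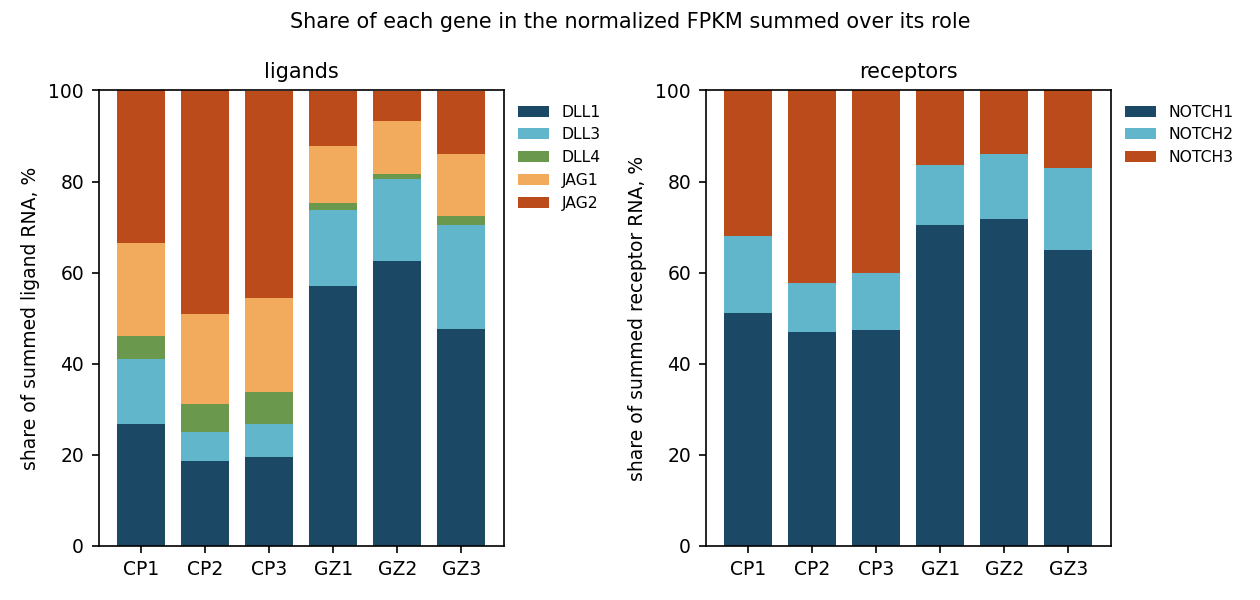
Share of each gene, in percent, in the normalized FPKM summed over the 5 ligands (left) and the 3 receptors (right), with 1 bar per library. DLL1 and NOTCH1 held larger shares in every GZ library than in any CP library, while JAG2 and NOTCH3 held smaller ones, with JAG2 at 6.66% to 13.9% in GZ.

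Of the modifiers, LFNG, a fringe sugar transferase, was not called. Its levels were 3.00, 2.44 and 2.66 in CP and 2.73, 3.06 and 2.74 in GZ, and the groups overlapped. The difference was 0.14 ± 0.18 (limma adjusted p = 0.571) with a 95% interval from -0.28 to 0.56. NUMB, the inhibitor of Notch, had the tightest replicates, at 4.41, 4.43 and 4.48 in CP and 4.70, 4.79 and 4.66 in GZ. Its small difference of 0.28 ± 0.08 was called (limma adjusted p = 0.025). NUMB was not called with library 1 or 3 of CP left out (adjusted p = 0.075 and 0.0501), with library 1 or 2 of GZ left out (0.078 and 0.098), with library 1 of both tissues left out (0.183) or with no filter on low values (0.058).

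The order of levels also differed between the tissues. In CP, JAG2 (4.98 ± 0.35, SD, log2 normalized FPKM) came first and NUMB (4.44 ± 0.04) next, and neither overlapped with the gene below it. NOTCH1, DLL1, JAG1 and NOTCH3 followed between 4.02 and 3.67, and each overlapped with its neighbour. DLL3, LFNG, DLL4 and NOTCH2 came last, between 2.70 and 2.15, again with overlap between neighbours. In GZ, DLL1 (5.82 ± 0.41) and NOTCH1 (5.39 ± 0.11) came first and overlapped, followed by NUMB (4.72 ± 0.06) and DLL3 (4.27 ± 0.15), which did not overlap with the genes next to them. JAG1, JAG2, NOTCH3, NOTCH2 and LFNG lay between 3.67 and 2.84 with overlapping neighbours, and DLL4 (0.65 ± 0.23) came last by 2.19.

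The wider pathway was read from a list of 43 other genes, of which 33 were in the table under a symbol and 31 passed the low-value filter, all but DLK1 and NEUROG1. Of the 31 tested, 13 were higher in GZ, 8 were higher in CP and 10 were not called, and the median difference was 0.30. The called share was 67.7%, against 45.4% of all genes. This list too was chosen with earlier results known, so the shares are a description. With library 1 of both tissues left out the count higher in GZ was 6, since POFUT1, APH1A, ADAM17, NCSTN, RBPJ, MAML2 and ITCH were not called, and the count higher in CP was 6, since NOTCH4 and DTX4 were not. The limma adjusted p of these 9 genes then ran from 0.056 for RBPJ to 0.166 for ITCH.

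Genes of the nuclear step were called as higher in GZ, 5 of 5 tested, where 24.5% of all genes were. RBPJ, the DNA-binding partner of cleaved Notch, was at 5.24, 5.11 and 5.21 in CP and 5.58, 5.65 and 5.50 in GZ, a difference of 0.39 ± 0.08 (limma adjusted p = 0.0053). The Mastermind coactivator genes MAML1, MAML2 and MAML3 differed by 0.67 ± 0.11, 0.47 ± 0.16 and 0.74 ± 0.14. SPEN, which codes for a corepressor that acts with RBPJ when Notch is silent, differed by 0.61 ± 0.10. MAML2 was not called with any 1 library of CP, or library 1 or 2 of GZ, left out, with adjusted p from 0.063 to 0.140, nor with a replicate block (0.057) or with no low-value filter (0.052).

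The genes of receptor cleavage went both ways, with 3 of 5 tested called as higher in GZ and 1 as higher in CP. Over all genes these shares were 24.5% and 20.9%. PSEN2, which codes for a catalytic subunit of gamma-secretase, was 2.73-fold higher in CP (-1.45 ± 0.18, limma adjusted p = 7.99e-04). It stood at 2.39, 2.87 and 2.38 in CP and at 1.10 in each GZ library. The subunit genes NCSTN and APH1A were higher in GZ by 0.31 ± 0.09 and 0.33 ± 0.07, and so was the protease gene ADAM17 (0.36 ± 0.12), whereas ADAM10 was not called. NCSTN was not called with library 1 or 3 of CP (adjusted p = 0.056 and 0.068) or library 2 of GZ (0.061) left out. ADAM17 was not called with any 1 library left out other than library 2 of GZ, with adjusted p from 0.056 to 0.122, with no low-value filter (0.064) or with variance not tied to level (0.070).

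Enzymes that place sugars on Notch went both ways. POFUT1 and POGLUT1, which start O-linked sugars on the receptor, were higher in GZ by 0.60 ± 0.13 and 0.78 ± 0.11. The fringe gene MFNG was 1.94-fold higher in CP (-0.96 ± 0.15, limma adjusted p = 0.0019), and the fringe gene RFNG was not called (0.21 ± 0.11). All 3 fringe genes were therefore measured, with 1 called.

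Genes of ligand and receptor turnover included the largest difference of the list in favour of CP. NEURL1, a ubiquitin ligase that acts on Notch ligands, was at 5.01, 4.82 and 4.81 in CP and 3.15, 2.80 and 2.69 in GZ, or 4.00-fold higher in CP (limma adjusted p = 6.95e-05). DNER, a neuronal transmembrane protein described as a Notch ligand, was 1.92-fold higher in CP (-0.94 ± 0.08). FBXW7, which marks cleaved Notch for destruction, was 1.70-fold higher and DTX4, of the Deltex family, 2.03-fold higher in CP, while the ubiquitin ligase gene ITCH was 1.37-fold higher in GZ. ITCH was not called with library 1 or 2 of CP (adjusted p = 0.091 and 0.105) or library 1 or 3 of GZ (0.081 and 0.088) left out, or with variance not tied to level (0.054).

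NOTCH4, the fourth receptor gene and one of endothelium, was at 1.88, 1.88 and 2.62 in CP and 1.33, 0.80 and 1.50 in GZ. The difference was -0.91 ± 0.28 (limma adjusted p = 0.028), and NOTCH4 was not called with library 3 of CP (adjusted p = 0.087) or library 1 or 2 of GZ (0.057 and 0.082) left out. As with DLL4, number 3 was the highest library of each tissue in both NOTCH4 and the endothelial sum. The part of endothelium in the NOTCH4 difference was not tested.

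Of 7 target genes, 3 were measured. HES4 was higher in CP, at 4.47, 4.69 and 4.85 against 4.06, 3.73 and 3.55 in GZ (-0.89 ± 0.16, limma adjusted p = 0.0030). HEY1 had a difference of -0.64 ± 0.24 that did not pass (adjusted p = 0.064), though it did with a replicate block (adjusted p = 0.037). With library 3 of GZ left out it was -0.37 (adjusted p = 0.121), and over the single libraries left out the adjusted p ran from 0.057 to 0.189. NRARP, a target that feeds back on the pathway, had 0.28 ± 0.19 (adjusted p = 0.270). HES1, HES5, HEY2 and HEYL are not analysed here, so the targets best known from radial glia are missing from this count.

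Of the proneural and related factors, 2 of 3 tested were called as higher in GZ, where 24.5% of all genes were. INSM1, a zinc finger factor of basal progenitors, was 4.58-fold higher in GZ (2.19 ± 0.20) and HES6, a HES relative that opposes HES1, 1.56-fold (0.64 ± 0.08). NEUROG2, a proneural factor of cortical progenitors, was at 2.83, 2.73 and 2.86 in CP and 3.09, 2.38 and 3.84 in GZ, and did not pass (0.30 ± 0.32, limma adjusted p = 0.487; -0.072 with library 3 of GZ left out). NEUROG1 lay under the low-value filter, at -1.55, -2.52 and -1.34 in CP and 0.39, -1.15 and 0.65 in GZ.

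**Figure D5:**
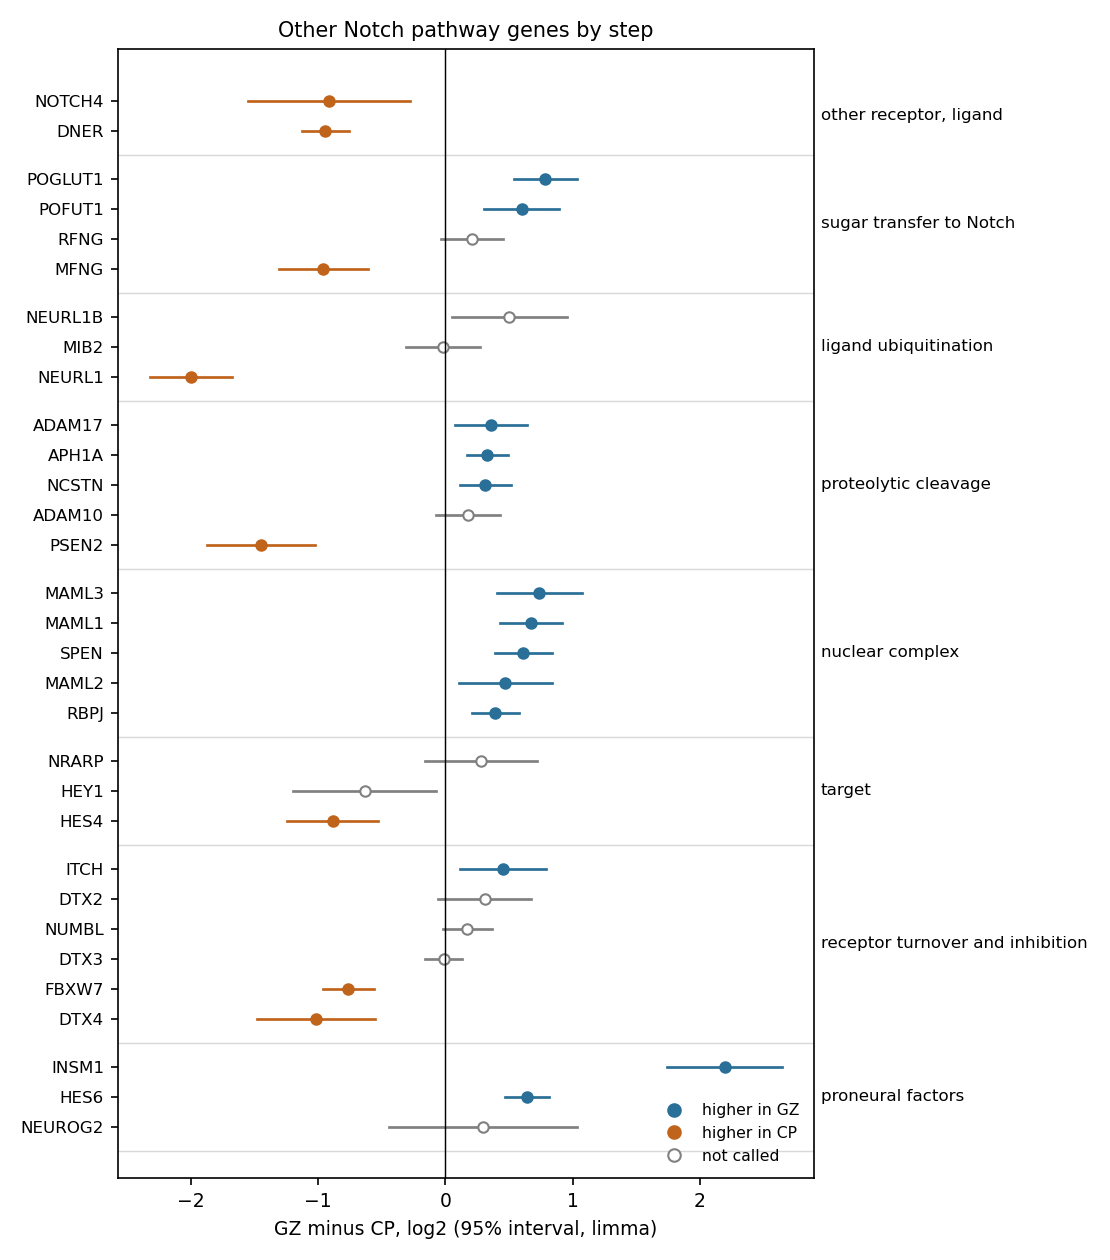
Difference between tissues, GZ minus CP, on the log2 scale with its 95% limma interval for the 31 tested genes of the wider pathway, grouped by step. The 5 genes of the nuclear step lie right of 0, from 0.39 for RBPJ to 0.74 for MAML3, while NEURL1 at -2.00 and INSM1 at 2.19 are the ends of the list.

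Likeness of pattern was measured as the root mean square distance over the 6 libraries between values centred on each gene's mean, among 11082 other genes with a symbol. It was taken for the gene with the largest difference in each role, as a description. The genes nearest to DLL1 were CDKN3, HJURP and NEK2, at distances of 0.038, 0.061 and 0.077 on the log2 scale, where the median gene was at 0.94. Those nearest to NOTCH1 were TMTC2, GSE1 and HUNK, at 0.055, 0.075 and 0.089 with a median of 0.71. Nearest to NUMB were SOS2, RAB2B and TRMU, at 0.013, 0.019 and 0.026 with a median of 0.26. Such distances count both the difference between the tissues and the spread among the libraries of each. DLL1 had an SD of 0.24 in CP and 0.41 in GZ, well above the distances of its nearest genes. Those genes thus also followed DLL1 from library to library. With 3 libraries of each tissue this stays a description.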

How the data were processed

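RNA was measured in 3 CP and 3 GZ libraries; groups and replicate numbers come from the sample titles. Values are the log2 FPKM that the authors deposited after cqn normalization, per the labels. Per the submitters' processing notes, STAR and SAMtools were among the tools and rheMac8 (Mmul_8.0.1) was the build, with no roles named. Read counter, annotation release and strandedness: not given in the sources used here, so overlapping genes may share reads. A reference table gave symbols for 14700 of 22345 Ensembl identifiers (65.8%).

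Genes with a mean of at least 0 over the 6 libraries (13460) were tested with limma 3.58.1 in R 4.3.3 (lmFit, eBayes with trend), GZ minus CP, with no block and no pseudocount, and Benjamini-Hochberg adjustment over all of them. The fit was checked on simulated data. Tables were made in Python 3.11.15 with pandas 2.3.3. Linear levels are 2 to the power of the deposited value. Alternatives changed 1 choice at a time: a replicate block, the filter on low values, a pseudocount of 1, centring on medians, quantile normalization, the variance model, and libraries left out singly or both numbered 1 together.

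All 10 genes are named. Of the wider pathway list, called genes, targets and proneural factors are named, and of each marker list up to 3 called genes with the largest difference, or none. Some genes of the wider list are not reported here, and its counts leave them out. The genes and lists were chosen with earlier results of these data known. The planned description of peaks and loops at these genes was not run, since no annotation on the build of the files was used.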

Additional observations from a re-analysis of the deposited data

How the results depend on the processing

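Over 15 alternatives none of the 10 genes changed direction, and 7 kept their side of the threshold in all of them: NOTCH1, DLL1, DLL3, DLL4, JAG1, JAG2 and LFNG. Of the 15 alternatives, NUMB lost its call in 6, NOTCH3 in 5 and NOTCH2 in 2. Fewer libraries enter most of the fits in which a call was lost. With each library left out in turn, GZ was higher for 3 to 5 of the 10 genes and CP for 2 to 3, against 5 and 3. Leaving out library 1 of both tissues gave 4 and 2, with NOTCH3 and NUMB not called (adjusted p = 0.152 and 0.183), 6 other pathway genes higher in GZ against 13, and over all genes 1644 for GZ and 1721 for CP against 3297 and 2816. NEUROG2, which was not called, ranged from -0.072, without GZ replicate 3, to 0.66, without GZ replicate 2. Titles give CP and GZ the same RM codes with the same replicate numbers, but nothing says that a code marks 1 animal. Deviations from the tissue mean correlated at -0.38, 0.30 and 0.35 for numbers 1, 2 and 3, so the numbers were not taken as pairs. Numbers 2 and 3 correlated best with their own number, and library 1 did not. With 3 libraries per tissue these correlations cannot decide whether a number marks 1 animal. With the replicate block the counts were 5 and 3 for the 10 genes and 12 and 9 for the wider list. Centring and quantile normalization gave 5 and 3 as well. Depth is unknown, so it sets no limit that can be given here.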

Other observations

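Genes next to the 10 were looked at after their values had been seen, by order of protein-coding genes on the RefSeq assembly T2T-MMU8v2.0, which is not the build of the files. Of 20 neighbours, 9 were tested under a symbol and 4 of these were called, a share near the 45.4% called over all genes. Beside the called genes of the 10 there were 6, of which FAM120B next to DLL1 was called in the same direction (0.21 ± 0.07, SE, limma adjusted p = 0.043) and 5 were not called. VPS18 and CHAC1, on either side of DLL4, had 0.24 ± 0.12 and -0.42 ± 0.21. ILVBL and EPHX3, on either side of NOTCH3, had 0.24 ± 0.16 and 0.49 ± 0.23, opposite in sign to NOTCH3. JAG1 and LFNG were not called, whereas BTBD3 and SLX4IP beside JAG1 were higher in GZ (0.55 ± 0.11 and 0.90 ± 0.17), and so was TTYH3 beside LFNG (0.63 ± 0.08).

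Among the ventricular radial glia genes, PAX6 and GLI3, transcription factors of cortical progenitors, were higher in GZ by 0.98 ± 0.19 and 1.50 ± 0.34, and PROM1, a membrane protein of apical progenitors, was higher in CP (-1.99 ± 0.20). The summed level of the ventricular genes overlapped between the tissues, at 315 to 422 normalized FPKM in CP and 346 to 373 in GZ. Of the other lists, none of 3 microglia and none of 6 meningeal genes were called by limma at an adjusted p under 0.05, and at an unadjusted p under 0.05 these were 0 and 2, the latter LUM (-1.07) and DCN (0.44), which were chosen after their values were seen. Astrocyte genes had 1 called in each direction of 4, oligodendrocyte lineage genes 2 higher in GZ of 4, and erythroid genes 2 higher in CP of 3. With 45.4% of all genes called, such counts in lists this short do not set these lists apart.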
